A study of Rattus norvegicus with 48 samples.

Results

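Slices of ligated rat liver exposed to Sora were compared with ligated slices exposed to vehicle alone, in 20 of the 48 RNA sequencing libraries of the series. The libraries were taken by their titles: 10 that begin BDL_Sora and 10 that begin BDL_veh. Precision-cut slices are thin sections of living tissue kept outside the body, and BDL is bile duct ligation, surgery that obstructs the flow of bile and brings on fibrosis of the cholestatic kind. Both groups came from ligated rats, so ligation is common to them and Sora is the labelled difference. Sora is read here as sorafenib, since the labels give only the short form. Strain, sex, age, dose, exposure time, the vehicle and the number of rats are not stated in the labels, nor is it stated whether 2 slices came from the same rat. The p-values therefore rest only on the spread between libraries, which could be technical, and that spread was estimated over all 48 libraries of the 5 groups. Total counts ranged from 12705773 to 29596955 with Sora and from 12723006 to 20629294 with vehicle.

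Sorafenib inhibits RAF kinases, which stand at the head of the MAP kinase cascade, and receptor tyrosine kinases for vascular endothelial growth factor, platelet-derived growth factor and stem cell factor. In fibrotic liver the platelet-derived growth factor receptors carry growth signals to stellate cells, the source of many collagen-producing myofibroblasts, and the vascular receptors act in endothelial cells. Bile duct ligation adds proliferating bile ducts and inflammatory cells to this tissue. RNA from whole slices mixes all of these cells, so fewer cells of a type and less RNA per cell cannot be told apart. The count table names genes by Ensembl ID, and 0 of its 32883 IDs could be paired with a symbol. Markers of liver cell types could therefore not be read, and genes are described by level, by size of change and by their values in each library.

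Sora changed the level of many genes by small amounts and of fewer genes by 2-fold or more. Of 14775 genes tested, 2406 (16.3%) were higher and 1917 (13.0%) lower with Sora, 29.3% in all (called at an adjusted p under 0.05 by edgeR's quasi-likelihood test, with Benjamini-Hochberg adjustment; 10 libraries each). The median called increase was 1.37-fold and the median called decrease 1.42-fold. Changes of less than 1.41-fold made up 1311 of the increases and 941 of the decreases. At 2-fold or more, 492 genes rose and 372 fell, which is 3.33% and 2.52% of the genes tested and 5.85% together. Changes of 8-fold or more numbered 17 upward and 10 downward.

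The larger changes depended on a few libraries more in the upward than in the downward direction. Leaving out each library in turn gave 427 to 623 higher and 353 to 393 lower at 2-fold or more. Sora libraries 1, 3 and 10, which stood apart from the other Sora libraries, were left out after seeing the data. They held the highest levels over the genes that rose, so fewer increases were bound to follow. Without them the counts at 2-fold or more were 289 higher and 441 lower. Vehicle libraries 3 and 6 stood apart from the other vehicle libraries. They held the highest vehicle levels over the genes that rose, so more increases were bound to follow without them. Leaving them out gave 694 higher and 355 lower at 2-fold or more. Without all 5 of these libraries the counts were 430 and 394, beside 492 and 372 in the full set. Small changes depended on how libraries were scaled. Under TMM scaling 55.7% of calls were increases. That share was 44.8% under RLE scaling and 44.95% in DESeq2. Scaling by total counts gave 38.1% (1598 increases and 2596 decreases). Whatever their size, 3511 of the 4323 called genes were called in the same direction with RLE factors, total counts and DESeq2, 1595 of them higher and 1916 lower.

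**Figure D1:**
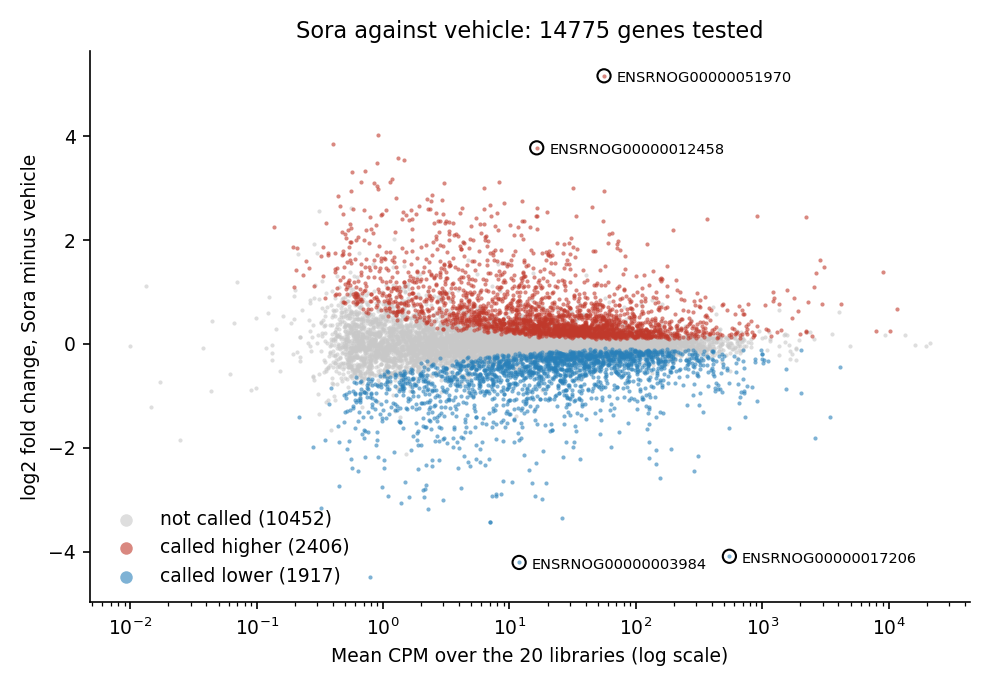
Log2 fold change of Sora against vehicle (vertical axis) for each gene tested, by its mean CPM over the 20 libraries (horizontal axis, log scale), with called genes coloured and the 4 genes described in the text ringed. The 2406 higher and 1917 lower genes span all levels, and ENSRNOG00000051970 lies above every other gene at a log2 fold change of 5.16.

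By a rule of size, the 2 largest increases and the 2 largest decreases are given by ID, among called genes whose higher group averaged 5 CPM or more. CPM is the usual count scaled to library size, here with TMM factors. ENSRNOG00000051970 rose from 1.83, 2.40 and 9.08 CPM (lowest, median and highest vehicle library) to 72.1, 103 and 149.5 CPM with Sora. The 10 Sora libraries all lay above the 10 vehicle libraries, and the highest Sora value was 2.07 times the lowest. Vehicle library 3, at 9.08 CPM, stood apart from the others, none of which exceeded 2.94 CPM. The log2 fold change was 5.16 (SE 0.230, edgeR adjusted p = 4.21e-22; 95% interval 4.70 to 5.63).

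ENSRNOG00000012458 rose in a very uneven way. Vehicle libraries held 0.409, 0.877 and 12.96 CPM (lowest, median and highest) and Sora libraries 3.30, 20.5 and 97.5 CPM. The groups overlapped: 5 of 10 Sora libraries lay above every vehicle library, and vehicle library 3, at 12.96 CPM, lay above Sora libraries 2, 4, 5, 7 and 8. The 3 highest Sora values were those of libraries 1 (97.5), 3 (58.4) and 10 (44.9). The log2 fold change was 3.78 (SE 0.675, edgeR adjusted p = 2.4e-05), 4.90 without vehicle library 3 and 2.78 without Sora libraries 1, 3 and 10 (edgeR adjusted p = 0.00142).

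ENSRNOG00000003984 fell evenly. It stood at 14.5, 22.2 and 30.6 CPM in the lowest, median and highest vehicle library and at 0.833, 1.22 and 1.83 CPM with Sora. All Sora libraries lay below all vehicle libraries, and both groups spanned little more than 2-fold, with ratios of highest to lowest of 2.20 and 2.12. Its log2 fold change was -4.21 (SE 0.406, edgeR adjusted p = 3.52e-11; 95% interval -5.03 to -3.39).

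ENSRNOG00000017206 was an abundant transcript in ligated slices and fell to a lower but still measurable level. Vehicle libraries held 523, 1065 and 1391 CPM, lowest, median and highest, and Sora libraries 15.5, 57.8 and 146 CPM. No Sora library reached the lowest vehicle library, number 3. Among the Sora libraries the values differed by 9.45 times from lowest to highest, against 2.66 times among vehicle libraries. Sora library 1 was lowest at 15.5 CPM and Sora library 4 highest at 146.3 CPM, the reverse of their places for ENSRNOG00000012458. The log2 fold change was -4.09 (SE 0.304, edgeR adjusted p = 1.78e-14; 95% interval -4.70 to -3.48).

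**Figure D2:**
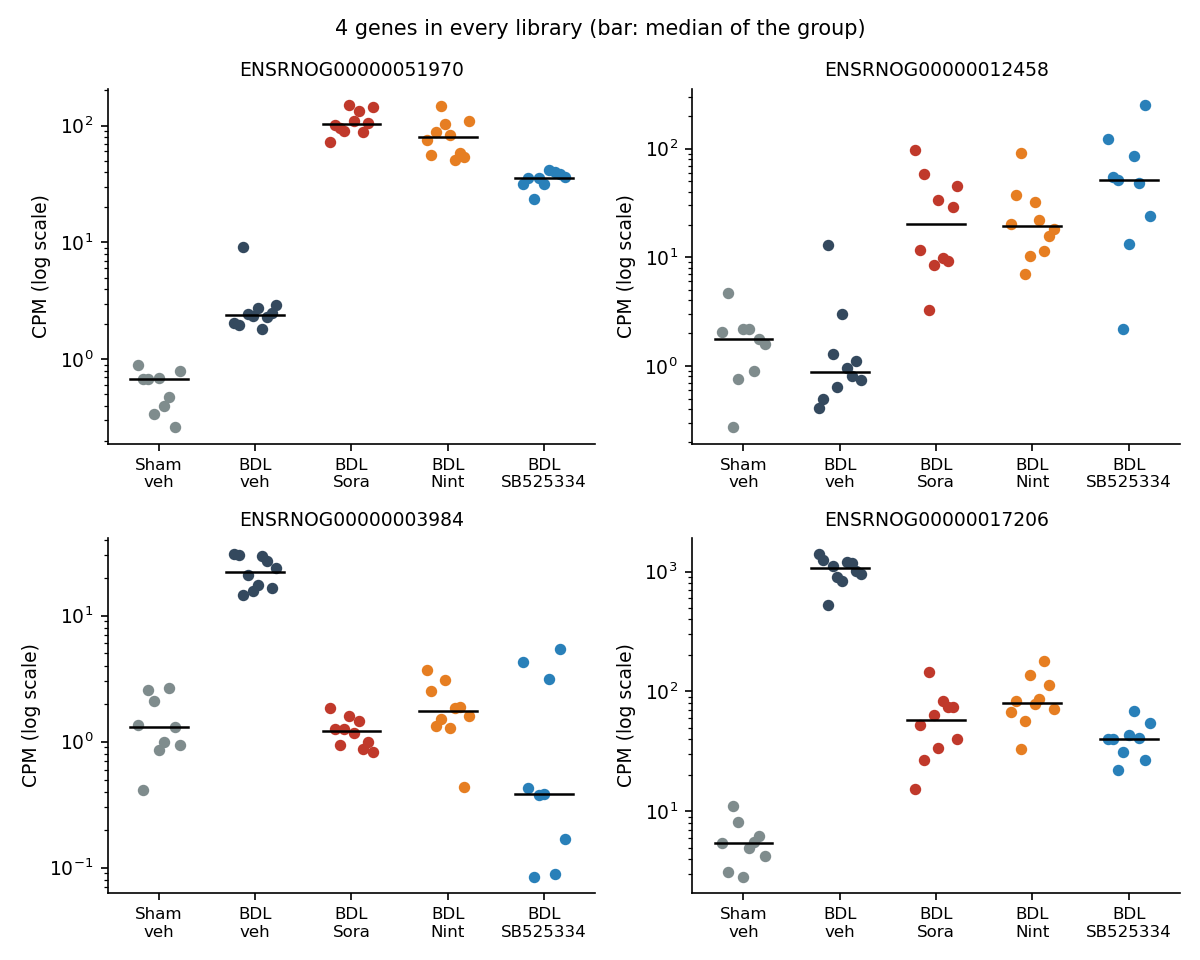
CPM (log scale) of the 4 genes in every library of the 5 groups, with a bar at each group's median. For ENSRNOG00000051970, ENSRNOG00000003984 and ENSRNOG00000017206 the Sora and BDL_veh libraries do not overlap, whereas ENSRNOG00000012458 ranges from 3.30 to 97.5 CPM with Sora and overlaps BDL_veh.

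The other groups show where these levels lie. In sham-operated slices with vehicle (Sham_veh, n = 9) ENSRNOG00000051970 held 0.580 ± 0.218 CPM (SD), below the 3.02 ± 2.15 of ligated vehicle slices (n = 10), so that Sora, at 109 ± 25.8 CPM (n = 10), lay further from sham than vehicle did. For ENSRNOG00000003984 sham slices held 1.47 ± 0.801 CPM, and all Sora libraries lay within the sham range of 0.410 to 2.67 CPM. ENSRNOG00000017206 was at 5.74 ± 2.57 CPM in sham slices and 61.0 ± 37.5 CPM with Sora, where the lowest library, at 15.5 CPM, exceeded the highest sham library, at 11.1 CPM. ENSRNOG00000012458 held 1.81 ± 1.26 CPM in sham slices, beside 2.24 ± 3.84 in ligated vehicle slices. These levels are set side by side, and Sora and sham were not tested against each other. Where both are set beside ligated vehicle slices, the same vehicle libraries serve for both.

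Nint is read as nintedanib and is likewise an inhibitor of growth factor receptor kinases. By group means, Nint left all 4 genes on the same side of ligated vehicle slices as Sora did. The 4 genes were chosen as the largest changes of Sora against these same vehicle libraries, so the shared side is no independent result. That choice also favours genes where Sora is extreme, and all 4 differences of Nint from Sora given below point toward vehicle. ENSRNOG00000051970 was at 82.8 ± 31.0 CPM with Nint (SD, n = 10) and ENSRNOG00000012458 at 26.6 ± 24.5. ENSRNOG00000003984 was at 1.92 ± 0.943 CPM and ENSRNOG00000017206 at 90.9 ± 42.6. In the direct test of Nint against Sora none of the 4 passed the threshold. The log2 differences were -0.40 (edgeR adjusted p = 0.272; 95% interval -0.76 to -0.03) for ENSRNOG00000051970 and -0.19 (adjusted p = 0.918; -1.32 to 0.94) for ENSRNOG00000012458. For ENSRNOG00000003984 the difference was 0.65 (edgeR adjusted p = 0.475; 95% interval -0.19 to 1.49), and for ENSRNOG00000017206 it was 0.57 (adjusted p = 0.286; 0.03 to 1.12). These intervals are for single genes and are not adjusted. SB525334, an inhibitor of the TGF-beta receptor kinase ALK5, also left all 4 on that side by their group means (SD, n = 9). The same choice of genes and the same vehicle libraries apply there. ENSRNOG00000051970 was at 34.9 ± 5.42 CPM and ENSRNOG00000012458 at 72.6 ± 76.6, while ENSRNOG00000003984 was at 1.604 ± 2.107 CPM and ENSRNOG00000017206 at 41.0 ± 14.3. For ENSRNOG00000051970 its highest library, 41.6 CPM, lay below the lowest Sora library. SB525334 and Sora were not tested against each other.

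The 20 libraries did not form 2 compact groups. In a principal component analysis of the 20, the first component held 39.3% of the variance and the second 18.0%. On the first, Sora libraries scored 28.01 ± 19.02 and vehicle libraries -28.01 ± 14.89 (SD, n = 10 each). Vehicle library 3, at 8.68, exceeded Sora library 4, at -0.79, and no other pair was out of order. On the second, Sora libraries 1, 3 and 10 scored -28.8, -27.0 and -3.88 while the other Sora libraries scored 13.37 to 29.99. Vehicle libraries 3 and 6 scored -47.7 and -36.6 while the other vehicle libraries scored -9.97 to 9.18. Sora libraries 1 and 3 and vehicle libraries 3 and 6 thus lay together at its low end, while Sora library 10 lay below the other Sora libraries but within the range of the other vehicle libraries.

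**Figure D3:**
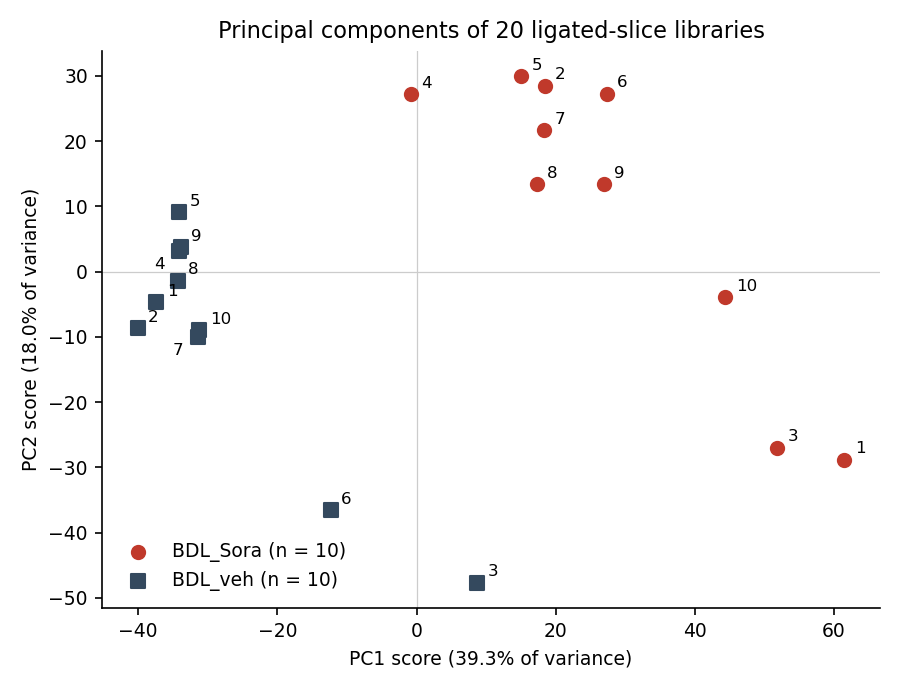
Scores of the 20 libraries on the first (horizontal) and second (vertical) principal component of log2 CPM, with the library number beside each point. Sora libraries 1 and 3 lie below the other Sora libraries on the second axis, at -28.8 and -27.0, and vehicle libraries 3 and 6 lie lowest, at -47.7 and -36.6.

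Genes that rose with Sora carried this unevenness, and genes that fell carried it less. Each library was described by its median log2 difference from the vehicle mean over the 492 genes that rose by 2-fold or more. Sora library 4 was lowest at 0.59, and Sora libraries 1, 3 and 10 were highest at 2.28, 2.07 and 1.87. Vehicle library 3 stood at 0.97, above Sora library 4, and vehicle library 6 at 0.35, while no other vehicle library exceeded -0.06. Over the 372 genes that fell by 2-fold or more, Sora libraries lay between -1.57 and -1.05 and vehicle libraries between -0.24 and 0.26, with a wide gap. These genes were chosen from the same 20 libraries, so the medians describe how the libraries differ within a group and are no test between groups.

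**Figure D4:**
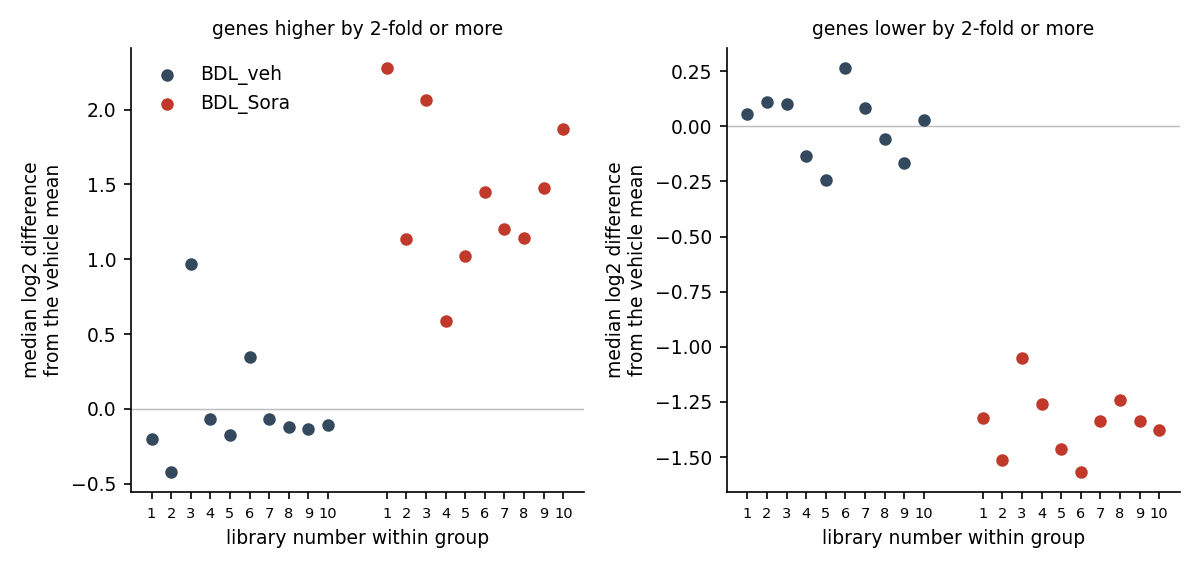
Median log2 difference from the vehicle mean in each library (horizontal axis, library number within its group), over the 492 genes higher (left) and the 372 genes lower (right) by 2-fold or more with Sora. Vehicle library 3, at 0.97, lies above Sora library 4, at 0.59, on the left, and the groups are apart on the right.

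Complete separation of the libraries was also more frequent among decreases. Over all genes tested, 453 (3.07%) were higher in every Sora library than in any vehicle library and 685 (4.64%) were lower. Scaled by total counts, 310 and 838 genes separated. Among genes changed by 2-fold or more, 80 of the 492 increases (16.3%) and 225 of the 372 decreases (60.5%) separated completely, and with total counts 75 and 231 did. The median increase had 7 of 10 Sora libraries above every vehicle library, and the median decrease had 10 of 10 below. Leaving out vehicle library 3 raised the 80 to 161, and leaving out Sora library 4 raised it to 137. Without vehicle libraries 3 and 6, 243 of the 492 increases (49.4%) and 246 of the 372 decreases (66.1%) separated. Fewer libraries make separation easier for any gene, and the share over all genes was not counted for this set. The increases had the larger spread in both groups, with a median SD on the log2 scale of 0.67 with Sora and 0.57 with vehicle, against 0.44 and 0.36 for the decreases.

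Few genes lay on opposite sides of 1 CPM in every library of the 2 groups. With Sora 2 genes lay above that limit and 5 below it, or 3 and 4 with total counts. Genes under 1 CPM can still hold counts, so these are not counts of genes absent or present. Spread within a group was somewhat larger with Sora: over all genes tested the median SD of log2 CPM was 0.172 with Sora and 0.143 with vehicle, and 63.7% of genes varied more with Sora. Among the 10452 genes that were not called this share was 63.0%.

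Abundant genes were called most often. Of 73 genes with a mean of 1000 CPM or more, 30 (41.1%) rose and 12 (16.4%) fell, and increases outnumbered decreases under TMM, RLE, total-count and DESeq2 scaling alike (24 and 16 for total counts). Their median log2 fold change was 0.18, against 0.02 over all genes. Of 1629 genes at 100 to 1000 CPM, 310 rose and 314 fell with TMM factors, 170 and 440 with total counts. Of 7796 genes at 10 to 100 CPM, 1277 rose and 928 fell, but 766 and 1348 with total counts, so the direction of the balance turned there. It turned also at 1 to 10 CPM, from 642 and 571 to 513 and 692 of 4151 genes. Of 1126 genes under 1 CPM, 147 rose and 92 fell. Fitting the 2 groups alone gave 59 and 64, but that fit filtered genes anew and tested only 4170 of the 4323 called genes. Genes removed by its filter are thus not the same as genes tested and not called. Under 1 CPM the median SE of a log2 fold change was 0.31, compared with 0.07 at 100 to 1000 CPM. Of these scarce genes, 102 of the increases and 57 of the decreases were of 2-fold or more.

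Genes outside the authors' table of expressed protein-coding genes were called less often. Of 955 such genes, 67 (7.02%) rose and 75 (7.85%) fell, against 2339 (16.9%) and 1842 (13.3%) of the 13820 in the table. Their median SE was 0.22, against 0.10 in the table, and the part of this difference in the share of calls was not tested. TMM scaling gave them a median log2 fold change of -0.07, against 0.03 for genes in the table, and total counts gave -0.13 against -0.03.

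The make-up of the libraries also differed between the groups. Exonic alignments were 42.45 ± 1.17% of mapped alignments with Sora and 39.6 ± 0.947% with vehicle (SD, n = 10 each), and intronic alignments 32.9 ± 1.14% and 35.6 ± 0.895% (permutation test, adjusted p = 0.0001275 for each, over 17 measures). Alignments across exon junctions were 9.27 ± 0.284% and 8.47 ± 0.233%, and those to protein-coding genes 46.4 ± 1.26% and 42.7 ± 1.07% (permutation test, adjusted p = 0.0001275 for each). The lincRNA share was 0.513 ± 0.0250% with Sora and 0.620 ± 0.0490% with vehicle, and the mitochondrial share 1.72 ± 0.105% and 1.42 ± 0.0644% (permutation test, adjusted p = 0.0001275 for each). Intergenic alignments fell from 16.4 ± 0.381% to 15.4 ± 0.426% (permutation test, adjusted p = 0.000264). Exonic, intronic, intergenic and junction shares add up to the whole in each library, so exonic here leaves out alignments across junctions. A rise in some of these shares brings a fall in others, so their changes are not independent results. The processed transcript class fell from 0.183 ± 0.00949% to 0.148 ± 0.0103%, and mitochondrial ribosomal RNA rose from 0.523 ± 0.0195% to 0.613 ± 0.0525% (permutation test, adjusted p = 0.0001275 and 0.000476). The groups met at a shared value for the mitochondrial (1.54%) and processed transcript (0.17%) shares and overlapped in the others.

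The 100 most abundant genes took 30.7 ± 1.44% of counts with Sora and 27.8 ± 1.01% with vehicle (SD, n = 10 each; permutation test, adjusted p = 0.0001275). Total count, the number of tested genes at 1 CPM or more, and the shares of unmapped, non-uniquely mapped and unique fragments did not pass the test (permutation test, adjusted p = 0.511, 0.424, 0.827, 0.169 and 0.521). Neither did the misc_RNA share or the insert size (permutation test, adjusted p = 0.511 and 0.104). Exonic share and the other measures move with the groups, and their part in the gene changes was not tested beyond a fit with a quality covariate. That fit called 4255 genes, and 3998 of the 4323 were called in the same direction. Its covariate was the first principal component of the quality metrics over all libraries of the series. How far that component carries the shares that differ between the groups was not tested. Vehicle library 3 had the lowest lincRNA share of its group, 0.53%, inside the Sora range of 0.46% to 0.54%. Its mitochondrial share, 1.35%, lay below every Sora library.

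**Figure D5:**
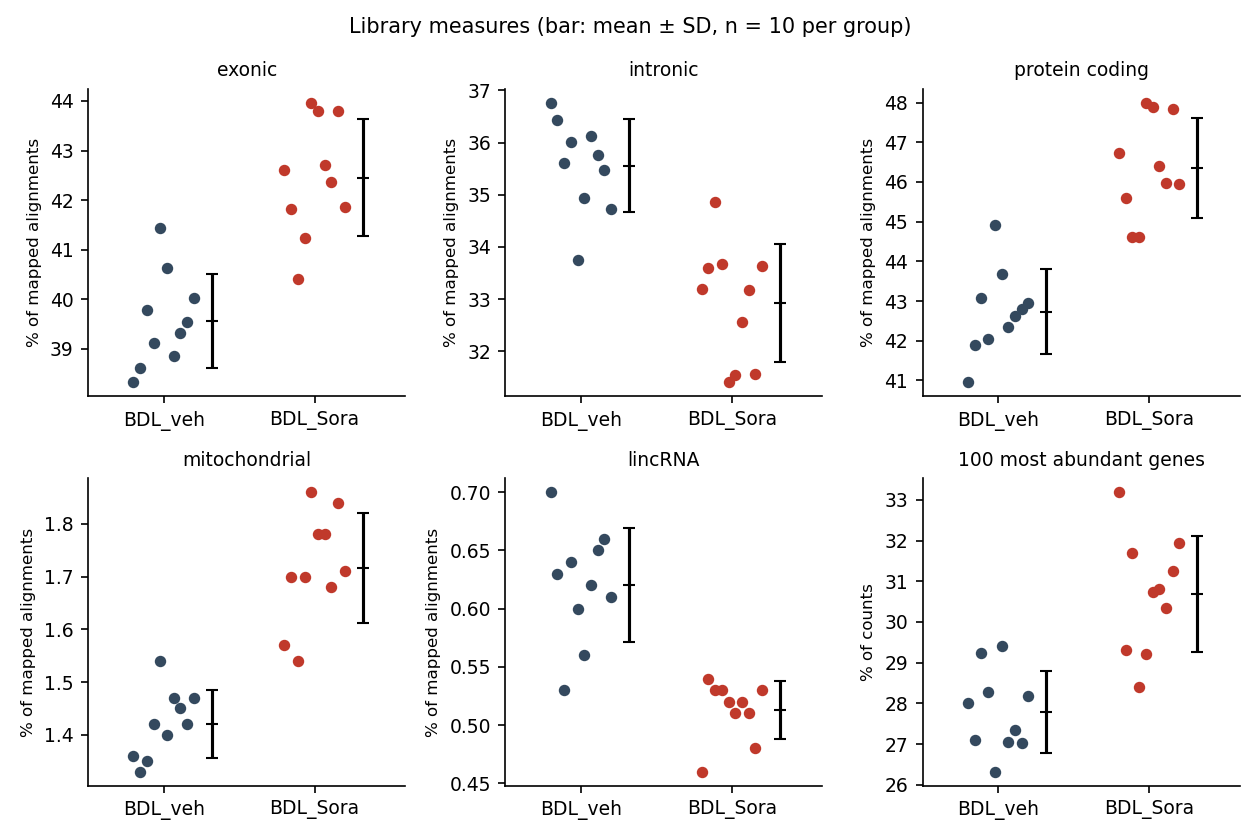
Library measures in the 10 BDL_veh and 10 BDL_Sora libraries, as a percent of mapped alignments or, for the 100 most abundant genes, of counts; points are libraries and bars the mean ± SD. Exonic, protein-coding and mitochondrial shares are higher and intronic and lincRNA shares lower with Sora, with the groups overlapping or touching at their edges; vertical axes do not start at 0.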

How the data were processed

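The authors deposited expected counts per gene for 48 libraries, not normalised (8.02% of values not whole at a tolerance of 1e-06), which were rounded. They also deposited log2 CPM values for 14418 genes that the file name calls expressed and protein coding, and a table of quality metrics whose percent values are shares of alignments. RSEM, edgeR and Rnor_6.0 are named, without versions, in the submitters' processing notes; the aligner, annotation and strand setting are not stated there, which leaves overlapping, antisense or near-identical genes uncertain.

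Low genes were removed by filterByExpr with group, and the rest were scaled with TMM factors and tested with edgeR 4.0.16 (R 4.3.3; glmQLFit, robust, and glmQLFTest) across all genes in 1 fit to all 48 libraries, with group as the only term; called means a Benjamini-Hochberg adjusted p under 0.05. Tests are two-sided. Standard errors come from the F statistic; 95% intervals use 43 residual degrees of freedom. Principal components used log2 CPM with a prior count set to 2. Permutation tests compared the library measures, with 100000 draws (SciPy 1.17.1, Python 3.11.15), for which 2e-05 is the smallest p; subsets with a group under 10 used exact tests. The fit was also run on simulated counts with known fold changes. Those counts were drawn independently, from vehicle means in every group, so that run does not cover libraries that stand apart as here. Within a group, every pair of libraries differed beyond sampling noise (lowest chi-square per degree of freedom 3.94 over 90 pairs). A floor of 3 counts is 0.101 to 0.236 CPM.

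Named genes had to pass 5 CPM in the higher group and be called in the same direction with RLE factors, with total counts and in the 2 groups alone. With no symbols, only 2 higher and 2 lower genes are named, and the gene lists and marker lists prepared by symbol gave no result. The comparison, lists and tests were chosen with earlier results of these data known. Alternatives were RLE factors, total counts, DESeq2 1.42.0, voom with sample weights in limma 3.58.1, limma's test on the authors' log2 CPM, no filter, a filter of 5 CPM in 9 libraries, the 2 groups alone, replicate number, position letter and position number from the library codes, a quality covariate, and libraries left out. Leaving out Sora libraries 1, 3 and 10, alone or with vehicle libraries 3 and 6, was chosen after seeing the data.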

Additional observations from a re-analysis of the deposited data

Results flagged for a closer look

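Among 60 sets of values (the 4 named genes in each group, 17 library measures and 3 principal components), 9 held a library set apart from its group by a gap of more than 0.466 of the range for 10 libraries or 0.493 for 9. For normally distributed values chance sets apart about 1 set in 20. The CPM values were taken without logs and can be skewed, so that rate need not hold for the named genes. Vehicle library 3 was set apart for both named genes that rose, at 9.08 CPM for ENSRNOG00000051970 (the others 1.83 to 2.94) and 12.96 CPM for ENSRNOG00000012458 (0.409 to 2.98). ENSRNOG00000012458 also had a library apart in groups outside the comparison: Nint library 3 at 90.98 CPM (the others 7.01 to 37.2), SB525334 library 8 at 252.0 CPM (2.17 to 121.8) and sham library 2 at 4.64 CPM (0.271 to 2.19). Sora library 4 was set apart for ENSRNOG00000017206, at 146.3 CPM (15.5 to 83.6), and for the mean insert size, at 159.9 bases (167.0 to 174.5). Sora library 6 was the deepest, with a total count of 29596955 (the others up to 19953486), and had the lowest share of unique fragments, 74.14% (80.04% to 83.31%).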

How the results depend on the processing

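Of the 4323 calls, 1947 (946 higher, 1001 lower) were made in the same direction under every alternative run. Some alternatives tested fewer of the 4323, with 3619 tested under the filter of 5 CPM in 9 libraries. A gene left untested could not be among the 1947. In the opposite direction 0 were called under any alternative, and the 4 named genes stayed called under all 35. Of the counts over all genes, these moved by more than 1.5 times. With total counts 1598 genes were higher. With the filter of 5 CPM in 9 libraries, which tests fewer genes, 508 genes were called at 2-fold or more, 290 higher and 218 lower. The 2 groups alone gave 3054 lower. Their total of 6057 calls, 42.8% of 14149 genes tested against 29.3% of 14775 in the main fit, moved by less than 1.5 times. Limma-voom with sample weights gave 7597 calls, 4217 higher and 3380 lower; the cause was not tested. Without Sora libraries 1, 3 and 10, 289 were higher at 2-fold or more. Leaving out each library in turn gave 3976 to 4383 calls. With replicate number as a block 4330 genes were called, 4174 of the 4323 in the same direction. Replicate numbers follow the order of the library codes within each group, so this block need not remove any effect of rat or batch. Same-numbered Sora and vehicle libraries correlated at -0.204 to 0.55, over 0.1 in 4 of 10 pairs. Of 10 Sora libraries, 2 correlated best with their own number. This cannot show whether libraries of the 2 groups shared a rat, since they could do so under other numbers. With the letter of the library code as a factor 3228 genes were called, and 3068 of the 4323 (70.97%) kept their call and direction, the lowest share of any alternative. Letters A and C held Sora but no vehicle libraries, and letters B, E and F held vehicle but no Sora libraries. Letter and Sora therefore cannot be fully told apart. By abundance and coding class, 34 further counts moved as far. Increases under 1 CPM numbered 59 in the 2 groups alone, where fewer genes were tested, and 80 with the letter. Increases at 1 to 10 CPM numbered 403 with the letter, and decreases at 10 to 100 CPM 1654 in the 2 groups alone.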
